A study of Danio rerio with 8 samples.

Results

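The mitochondrial genome of zebrafish encodes the RNAs described here, which were followed in small RNA libraries of whole larvae whose fathers had or had not been chronically stressed. Members were taken by annotation: every row of the count table with the biotype Mt_tRNA (22 genes) or Mt_rRNA (2 genes), and every protein-coding row whose symbol begins with mt- (13 genes). This set was chosen with earlier results of these data known. The members are 37 of 32520 genes, and all 37 had at least 1 count. The S+ larvae were the offspring of AB wildtype males that went through 21 days of chronic stress and were crossed with undisturbed females. The S- larvae came from undisturbed males and undisturbed females of the same strain. Each group held 4 libraries. A library was a pool of 50 larvae at 7 dpf from 1 crossing, so it gives an average over siblings and over all tissues. The labels give the larvae no treatment of their own.

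In vertebrates the mitochondrial genome is copied into long transcripts from both strands, and these are cut, mostly at the tRNAs that lie between the other genes, into mRNAs, rRNAs and tRNAs. The mRNAs code for core subunits of respiratory complexes I, III, IV and V, which pump protons across the inner membrane or use their gradient to make ATP. All other proteins of the organelle come from the nucleus. A small RNA library holds short molecules, so the counts below are counts of fragments or of short RNAs from these genes, and no value is a level of intact mRNA. Counts were not divided by gene length, and levels of different genes are therefore not compared with each other.

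The libraries held 3492945 to 4943297 counts in S+ and 3527034 to 4301348 counts in S-. MiRNA genes took 97.2% to 97.9% of them in S+ and 96.2% to 97.7% in S-. Mitochondrial RNAs made up 0.128%, 0.0705%, 0.149% and 0.0796% of all counts in S+ 1 to S+ 4, and 0.0519%, 0.109%, 0.0972% and 0.0440% in S- 1 to S- 4. The groups overlapped in this share. MiRNA genes typical of muscle, neurons, liver, gut, red blood cells, skin and pancreas were found in every library, as whole larvae should have them.

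The mitochondrial mRNAs had the higher mean in S+ for all 13 genes, the tRNAs for 19 of 22 genes, and the rRNAs for 1 of 2 genes. Values are given as CPM, counts relative to the library size after TMM scaling. The summed mRNA CPM was 292, 223, 401 and 302 in S+ 1 to S+ 4, against 95.6, 296, 174 and 61.0 in S- 1 to S- 4. Library S- 2 lay within the S+ range, and the other 3 S- libraries lay below every S+ library as CPM. As a share of all counts, without TMM scaling, S- 3 at 0.01891% also lay above S+ 2 at 0.01883%. The mean was 304 ± 73.3 in S+ and 157 ± 104.1 in S- (SD, n = 4 each), a ratio of 1.94.

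The summed CPM of the tRNA genes was 718, 429, 513 and 350 in S+ 1 to S+ 4, against 360, 394, 303 and 310 in S- 1 to S- 4. It averaged 502 ± 158 in S+ and 342 ± 43.1 in S- (SD, n = 4 each), with overlap between the groups. The summed CPM of the rRNA genes was 254, 183, 363 and 156 in S+, against 89.9, 340, 417 and 102 in S-. Its means were 239 ± 92.6 in S+ and 237 ± 166 in S- (SD, n = 4 each), and S- held both the highest and the lowest library. These sums are descriptions without a test, and so is the contrast between the classes.

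**Figure D1:**
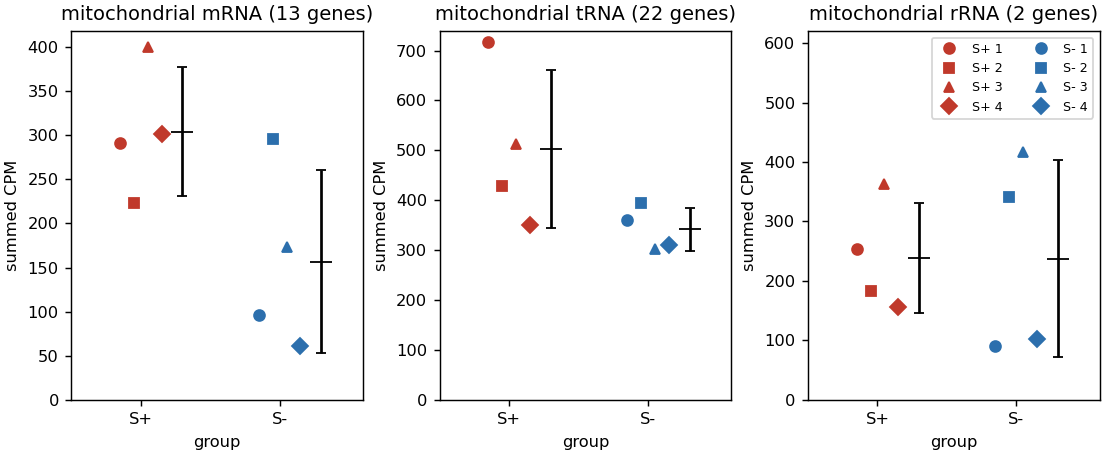
Summed CPM (y axes) of the mitochondrial mRNA, tRNA and rRNA genes in S+ and S- (x axes), 1 point per library, with the mean and SD as a bar beside the points. The mRNA sum averaged 304 in S+ and 157 in S-, while the rRNA sum averaged 239 in S+ and 237 in S-.

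Each gene was compared between S+ and S- with limma after the voom transformation, fitted on all 651 genes that passed a filter on low counts. Calls required a Benjamini-Hochberg adjusted p, taken over all genes tested, below 0.05 together with an absolute log2 fold change above 0.58. Of the mitochondrial genes, 28 passed the filter: 10 mRNAs, 16 tRNAs and 2 rRNAs. For 3 of the mRNAs (mt-nd2, mt-nd4 and mt-atp8) more S+ than S- libraries reached the minimum of the filter. For 2 of the tRNAs more S- libraries did, so the tested members are not a neutral sample of all members. No mitochondrial gene was called, higher or lower. Over all genes tested, 0.154% were called higher and 0.154% were called lower. The quasi-likelihood test of edgeR also called 0 members, while DESeq2 called 4, all higher in S+: mt-nd1, mt-nd2, mt-atp6 and the tRNA gene ENSDARG00000082789. DESeq2 called 30 of the 651 genes tested, and 2.46% of all genes as higher in S+.

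At an unadjusted limma p below 0.05, 11 of the 28 members were higher in S+, 7 mRNAs and 4 tRNAs, and 0 were lower. This count was added after seeing the data. The 7 mRNAs include mt-nd2 and mt-nd4, for which more S+ than S- libraries reached the minimum of the filter. The same threshold was passed by 7.22% of all genes tested as higher and by 5.22% as lower. The count of 11 was 7 without library S- 4 and 7 without library S+ 3. The log2 fold change was positive for 25 of the 28 members and for 46.5% of all genes tested. Its median was 1.28 over the 10 mRNAs, 0.23 over the 16 tRNAs and 0.22 over the 2 rRNAs (-0.03 with edgeR and with DESeq2), beside -0.02 over all genes tested and 0.04 over the 195 nuclear protein-coding genes tested. Without library S+ 1 the tRNA median was -0.04, and 20 of the 29 members then tested were positive. The rRNA median was -0.14 without S- 1, -0.09 without S- 4 and -0.03 without S+ 3. The mRNA median stayed between 0.99 and 1.54 with any 1 library removed. The members are not independent observations, as the same libraries were extreme for many of them. S+ 3 was the highest library for 9 of the 10 mRNAs tested, and S+ 1 for 12 of the 16 tRNA genes tested. With every gene of at least 1 count in the fit, the log2 fold change was positive for 13 of 13 mRNAs, with a median of 1.10. The 3 mRNAs added in this fit, mt-nd3, mt-nd4l and mt-nd6, had only 37 to 81 counts in total. Their fold changes are therefore not reliable.

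**Figure D2:**
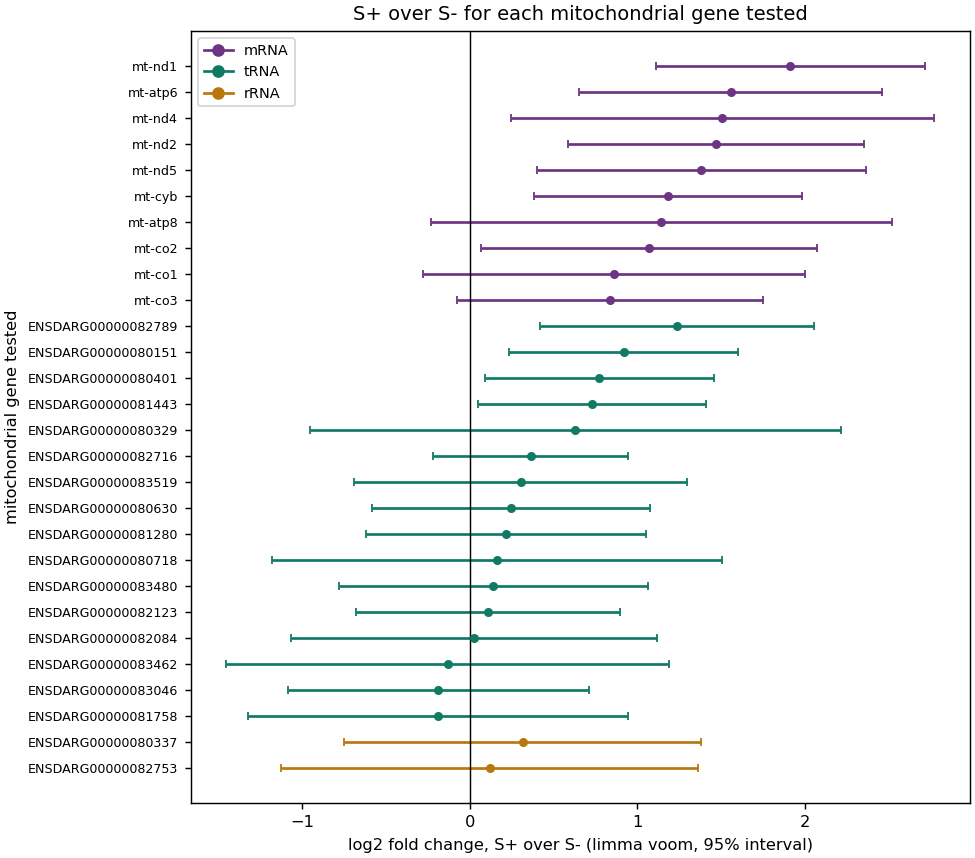
Log2 fold change of S+ over S- from limma (x axis, points) with its 95% interval (bars) for the 28 mitochondrial genes tested (y axis), coloured by class. All 10 mRNAs lie to the right of 0, from 0.84 to 1.91, and the tRNAs spread from -0.19 to 1.24.

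Complex I, the NADH dehydrogenase that feeds electrons into the chain, is represented by 7 mitochondrial mRNAs. Mt-nd1 (ENSDARG00000063895), a membrane subunit near the ubiquinone site, had 17.96, 19.1, 35.8 and 18.9 CPM in S+ 1 to S+ 4, against 4.63, 7.71, 7.86 and 3.66 CPM in S- 1 to S- 4, on 12 to 187 counts per library. Every S+ library lay above every S- library. The means were 23.0 ± 8.61 CPM in S+ and 5.96 ± 2.14 CPM in S- (SD, n = 4 each). The log2 fold change was 1.91 (standard error, SE, 0.359, 95% interval 1.11 to 2.72), a 3.77-fold difference, with limma p values of 0.000345 before and 0.0750 after adjustment. It ranked 3 by p among the 651 genes tested and missed the call. The two-sided exact permutation test on its log2 CPM gave p = 0.0286, the smallest that 4 libraries against 4 allow. Any gene whose groups do not overlap gets this value, so it adds nothing to the absence of overlap. Of the 28 members tested, 5 had every S+ library above every S- library (mt-nd1, mt-nd2, mt-cyb, mt-atp6 and 1 tRNA gene), and 0 had the reverse. For mt-nd2, more S+ than S- libraries had reached the minimum of the filter. Such groups without overlap were found for 4.76% of all genes tested as higher in S+ and for 2.92% as lower. The count depended on the scaling. With DESeq2 size factors it was also 5, beside 27 of the 651 genes tested as higher and 18 as lower. Over counts outside miRNA genes it was 9, beside 76 as higher and 5 as lower. As a share of all counts, only mt-nd1 and mt-nd2 kept their groups apart, 2 of the 28. Of all genes tested, 3.84% were then apart as higher and 3.23% as lower.

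Mt-nd1 was called in 6 of the 10 other analyses that used all 8 libraries, with adjusted p values from 0.000110 to 0.125, and in 0 of the 8 fits with 1 library removed, with adjusted limma p values from 0.0778 to 0.264. Its log2 fold change stayed between 1.66 and 2.06 in all of these. The 6 include the fits with the replicate number as a block, although the labels do not tie libraries of the same number. The block with edgeR was also chosen after seeing the data. Beside DESeq2, the fits that called it called as higher in S+ 0.273% of all genes tested when miRNA genes were left out, 0.175% with every gene of at least 1 count, 0.43% with at least 10 counts in every library, 0.614% with the replicate number as a block in limma and 0.307% with that block in edgeR.

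Mt-nd2, another membrane subunit of complex I, had 10.6, 9.57, 19.0 and 9.87 CPM in S+ 1 to S+ 4, against 2.45, 5.73, 6.34 and 3.05 CPM in S- 1 to S- 4. Its groups did not overlap either, and S+ 3 was again the highest library. The log2 fold change was 1.47 (SE 0.396), with a limma adjusted p of 0.166. Mt-nd4, which forms part of the proton-pumping arm, had 18.5, 10.5, 25.9 and 16.2 CPM in S+, against 4.36, 13.7, 9.63 and 1.52 CPM in S-. Here S- 2 lay above S+ 2, so the groups overlapped, and the log2 fold change of 1.51 (SE 0.567) had a limma adjusted p of 0.294. Mt-nd5, the largest subunit of the pumping arm, had 16.5, 15.5, 24.9 and 20.0 CPM in S+, against 4.09, 16.7, 9.12 and 3.66 CPM in S-. Its log2 fold change was 1.38 (SE 0.441, limma adjusted p = 0.201), with S- 2 inside the S+ range.

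The other 3 complex I mRNAs did not pass the filter, at 37 to 81 counts in total. Mt-nd4l, a small subunit whose gene overlaps that of mt-nd4, had 3.69, 1.196, 4.025 and 2.03 CPM in S+, against 1.36, 1.10, 1.27 and 1.22 CPM in S-. S+ 2 lay within the S- range. Mt-nd6, the only mitochondrial mRNA made from the light strand, had 11, 5, 9 and 6 counts in S+ 1 to S+ 4, against 0, 5, 0 and 1 counts in S- 1 to S- 4. Its S+ libraries lay above the S- libraries as CPM, from 1.196 to 2.71 in S+ against 0 to 1.10 in S-. As a share of all counts S+ 2 lay below S- 2, and the counts are too few for a fold change. Mt-nd3 had 1.72 to 4.06 CPM in S+ and 0.915 to 3.04 CPM in S-.

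**Figure D3:**
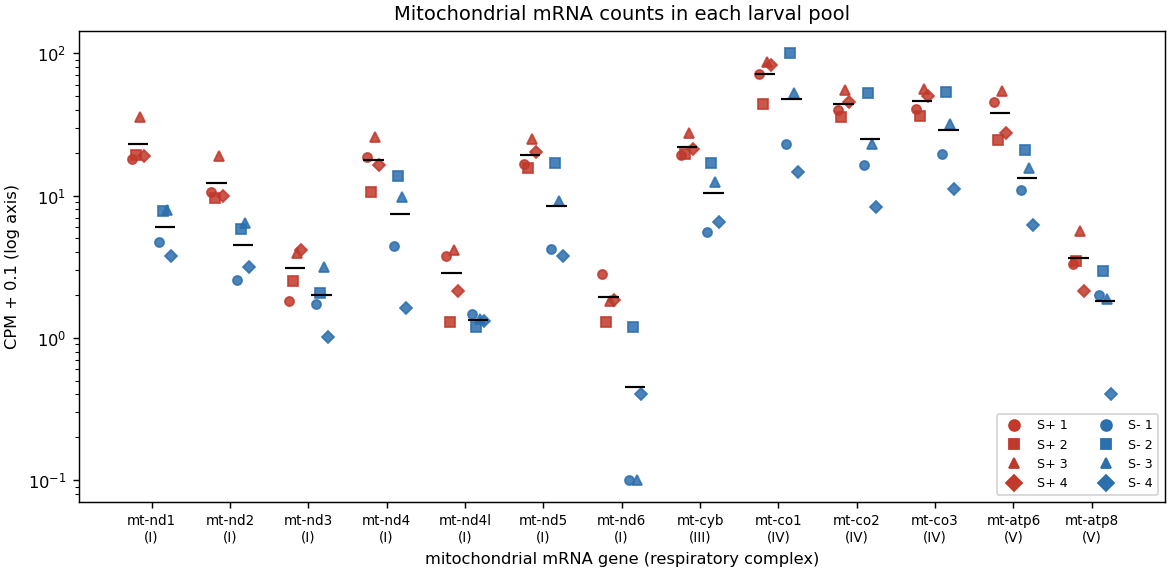
CPM + 0.1 on a log axis for the 13 mitochondrial mRNAs (x axis, with the respiratory complex in brackets), 1 point per library, with S+ left and S- right and the group mean as a line. The points of mt-nd1, mt-nd2, mt-nd6, mt-cyb and mt-atp6 do not overlap between the groups as CPM (as shares of all counts, only those of mt-nd1 and mt-nd2 do not). S- 2 reaches the S+ range for the complex IV mRNAs and for mt-nd3, mt-nd4, mt-nd5 and mt-atp8.

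Complex III has 1 mitochondrial mRNA, mt-cyb, which codes for cytochrome b. It had 19.2, 19.4, 27.4 and 21.2 CPM in S+, against 5.45, 16.96, 12.4 and 6.40 CPM in S-. The groups did not overlap as CPM, but as a share of all counts they did, with S+ 2 at 0.00164% and S- 2 at 0.00179%. The log2 fold change was 1.18 (SE 0.359), with limma p values of 0.00814 before and 0.195 after adjustment.

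Complex IV, cytochrome c oxidase, passes electrons to oxygen, and its 3 mitochondrial mRNAs code for the catalytic core. Mt-co1, the mRNA with the highest mean count, had 71.6, 44.0, 87.0 and 83.0 CPM in S+, against 22.9, 101, 52.2 and 14.6 CPM in S-. The highest library of all was S- 2, and the log2 fold change of 0.86 (SE 0.511, limma adjusted p = 0.534) had a 95% interval from -0.28 to 2.00. Mt-co2 had 39.6, 35.4, 55.4 and 45.3 CPM in S+, against 16.3, 52.4, 23.1 and 8.23 CPM in S-, and its log2 fold change was 1.07 (limma adjusted p = 0.352). Mt-co3 had a log2 fold change of 0.84 (limma adjusted p = 0.426), with 36.4 to 55.8 CPM in S+ and 11.0 to 53.5 CPM in S-. For all 3 genes S- 2 lay within or above the S+ range, and for mt-co1 so did S- 3.

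Complex V is the ATP synthase, and mt-atp6 codes for the membrane subunit through which protons flow. It had 45.8, 24.6, 54.4 and 27.3 CPM in S+, against 10.9, 20.7, 15.5 and 6.10 CPM in S-. The groups did not overlap as CPM, but as a share of all counts S+ 2 had 0.00208% and S- 2 had 0.00219%. The log2 fold change was 1.56 (SE 0.405, 95% interval 0.65 to 2.46), with limma p values of 0.00331 before and 0.164 after adjustment. Mt-atp8, a short accessory subunit whose gene overlaps mt-atp6, had 3.20, 3.35, 5.56 and 2.03 CPM in S+, against 1.91, 2.86, 1.77 and 0.305 CPM in S-. These values rest on 1 to 29 counts per library, the groups overlapped, and the log2 fold change was 1.14 (SE 0.616, limma adjusted p = 0.468). RSEM can divide a read between overlapping genes, so the division of counts between mt-atp8 and mt-atp6, between mt-atp6 and mt-co3, between mt-nd4l and mt-nd4, and between mt-nd5 and mt-nd6 is uncertain.

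Summed over each complex, the CPM of complex I was 59.6 to 115 in S+ and 14.3 to 48.0 in S-, and that of complex V was 28.0 to 60.0 in S+ and 6.40 to 23.6 in S-. Neither sum overlapped between the groups as CPM, but as a share of all counts, without TMM scaling, both did: complex I held 0.00504% to 0.0134% in S+ and 0.00133% to 0.00507% in S-, and complex V held 0.00237% to 0.00700% in S+ and 0.000595% to 0.00249% in S-. The complex IV sum was 116 to 198 in S+ and 33.8 to 207 in S-, where S- 2 was the highest library. The ratio of the means was 2.702 for complex I, 2.11 for complex III, 1.58 for complex IV and 2.77 for complex V. Of the mitochondrial mRNA counts, complex I held 24.1% to 28.7% in S+ and 16.2% to 23.5% in S-, and complex IV held 49.5% to 59.1% in S+ and 55.5% to 70.04% in S-. Within this pool, mt-nd1 was 6.16% to 8.94% in S+ and 2.61% to 6.00% in S-. The value of 6.00% was 12 of 200 counts, in S- 4. Mt-co3 was 13.9% to 16.6% in S+ and 18% to 20.5% in S-. The shares of mt-nd2, mt-nd4, mt-nd5, mt-cyb, mt-co1, mt-co2 and mt-atp6 overlapped between the groups. Per 100 mt-co1 counts, the mt-nd1 counts were 22.7 to 43.5 in S+ and 7.63 to 25.0 in S-, with overlap. Shares of the same pool cannot all be higher in the same group. The mRNA of mt-cyb held 7.28% ± 0.962 in S+ and 7.27% ± 2.26 in S- (SD, n = 4 each). These shares and the ratio of mt-nd1 to mt-co1 were not tested.

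Among the tRNA genes, which read the codons of the organelle's own mRNAs, the files and the reference tables used here pair no identifier with an amino acid, so they are given by Ensembl identifier. ENSDARG00000082789 had 81.7, 53.1, 124 and 101 CPM in S+ 1 to S+ 4, against 32.7, 44.5, 59.0 and 19.2 CPM in S- 1 to S- 4. S- 3 lay above S+ 2, and otherwise S+ was higher throughout. The log2 fold change was 1.24 (SE 0.367), with limma p values of 0.00718 before and 0.195 after adjustment. This gene took 11.4% to 28.8% of all mitochondrial tRNA counts in S+ and 6.19% to 19.5% in S-.

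ENSDARG00000080151 was the 1 tRNA gene whose groups did not overlap as CPM, although they did as a share of all counts. It had 26.3, 15.3, 22.0 and 12.2 CPM in S+, against 7.90, 11.7, 10.9 and 8.23 CPM in S-. Its log2 fold change was 0.92 (SE 0.306, limma adjusted p = 0.207). ENSDARG00000080401 had 47.5, 34.0, 32.4 and 21.5 CPM in S+, against 21.5, 25.8, 18.5 and 12.5 CPM in S-, and its log2 fold change was 0.78 (limma adjusted p = 0.323). ENSDARG00000081443 had 109, 67.7, 76.1 and 41.2 CPM in S+, against 54.0, 47.6, 34.0 and 36.0 CPM in S-, and its log2 fold change was 0.73 (limma adjusted p = 0.351). In both of these the library S+ 4 fell within the S- range.

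The tRNA gene with the highest mean count, ENSDARG00000082716, had 131, 80.4, 61.9 and 76.3 CPM in S+, against 72.2, 72.0, 47.1 and 71.6 CPM in S-. Its log2 fold change of 0.37 (SE 0.261, limma adjusted p = 0.573) had a 95% interval from -0.22 to 0.95. The remaining 11 tRNA genes tested had log2 fold changes from -0.19 to 0.63 and unadjusted p values above 0.05, and 6 tRNA genes with 11 to 78 counts in total did not pass the filter. S+ 1 was the highest library for 12 of the 16 tRNA genes tested, while S+ 3 was the highest for 9 of the 10 mRNAs tested. S- 4 was the lowest for 8 of these mRNAs. The libraries thus ranked differently for tRNAs and mRNAs within the S+ group.

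**Figure D4:**
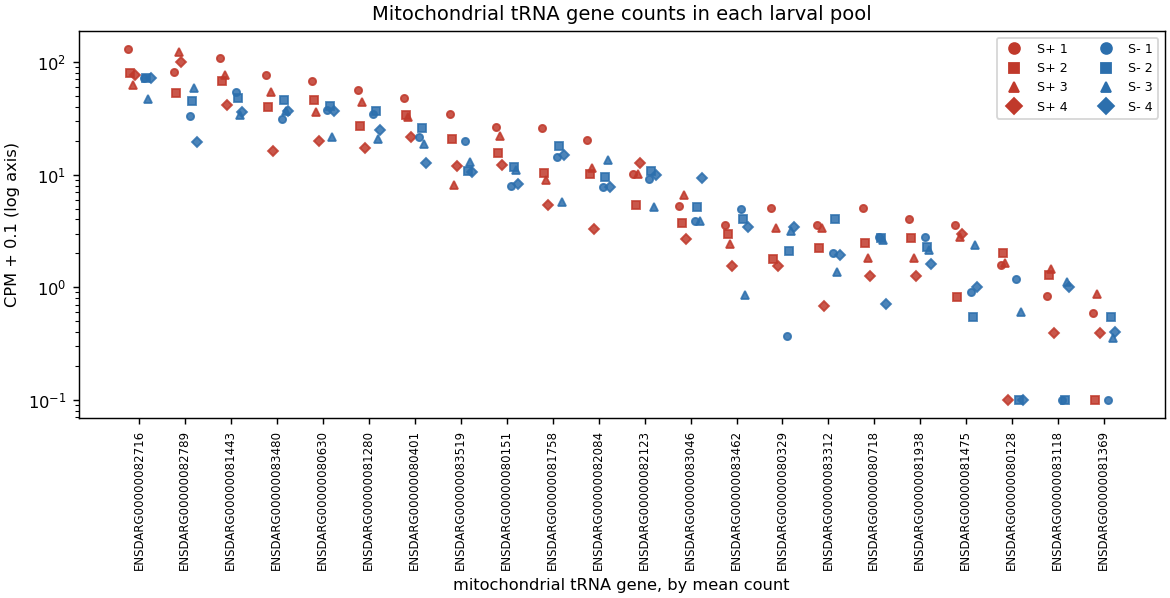
CPM + 0.1 on a log axis for the 22 mitochondrial tRNA genes, ordered by mean count (x axis), 1 point per library, with S+ left and S- right. S+ 1 (red circle) is on top for most genes, and only ENSDARG00000080151 has groups that do not overlap as CPM, though they overlap as shares of all counts.

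The 2 rRNA genes code for the RNAs of the small and large subunit of the mitochondrial ribosome, and which identifier is which is not given in the sources used here. ENSDARG00000080337 had 166, 122, 236 and 96.0 CPM in S+, against 55.0, 187, 255 and 71.3 CPM in S-. ENSDARG00000082753 had 87.8, 60.3, 127 and 59.8 CPM in S+, against 34.9, 154, 162 and 30.8 CPM in S-. In both genes S- 2 and S- 3 were among the highest libraries and S- 1 and S- 4 were the lowest. The log2 fold changes were 0.32 (SE 0.478) and 0.12 (SE 0.558), with 95% intervals from -0.75 to 1.38 and from -1.13 to 1.36. The methods name a kit that depletes rRNA. Cytosolic rRNA genes held 0.0320% to 0.0693% of all counts in S+ and 0.0608% to 0.121% in S-, and the part of depletion in the mitochondrial rRNA values was not tested.

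Ratios of counts within a library do not depend on the scaling between libraries. The mRNA counts per 100 rRNA counts were 115, 122, 110 and 194 in S+ 1 to S+ 4, against 106, 86.9, 41.7 and 59.7 in S- 1 to S- 4, so that every S+ library lay above every S- library. As the rRNA counts form its denominator, this ratio moves with any difference in rRNA depletion between libraries, which was not tested. Per 100 tRNA counts, the mRNA counts were 40.7 to 86.3 in S+ and 19.6 to 75.0 in S-, with overlap. The counts of complex I mRNAs per 100 counts of complex IV mRNAs were 47.1, 51.4, 58.1 and 40.8 in S+, against 31.5, 23.2, 34.8 and 42.3 in S-, with only S- 4 inside the S+ range.

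Fragments of nuclear mRNAs were examined in the same libraries. Nuclear protein-coding genes held 0.666%, 0.536%, 0.786% and 0.665% of all counts in S+ 1 to S+ 4, against 0.531%, 1.02%, 0.876% and 0.4998% in S- 1 to S- 4. S- 2 and S- 3 had the highest shares and S- 4 and S- 1 the lowest, which is also the order of the summed mitochondrial mRNA CPM within S-. S- 2 and S- 3 had the highest lincRNA shares as well, 0.913% and 0.445%, while the other 6 libraries had 0.0673% to 0.147%. Among all protein-coding counts, the mitochondrial share was 4.25%, 3.39%, 5.62% and 4.28% in S+, against 1.68%, 2.97%, 2.11% and 1.12% in S-, without overlap. Whether the amount of fragmented mRNA in a library plays a part in the difference of the mitochondrial mRNAs was not tested.

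**Figure D5:**
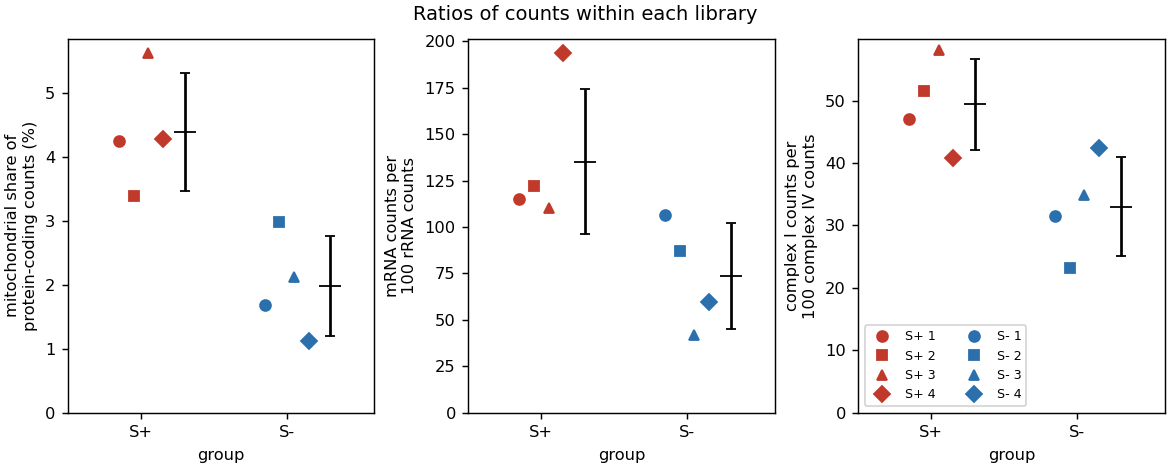
Ratios of counts within each library (y axes) in S+ and S- (x axes), with the mean and SD as a bar: the mitochondrial share of protein-coding counts, mRNA counts per 100 rRNA counts, and complex I per 100 complex IV mRNA counts. The first ratio was 3.39% to 5.62% in S+ and 1.12% to 2.97% in S-, and the part of rRNA depletion in the second was not tested.

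The nuclear genes that work with these RNAs were barely covered. Of 194 nuclear genes for respiratory complexes I to V, the mitochondrial ribosome and mitochondrial transcription and RNA processing, 154 had at least 1 count, none had more than 20 counts in a library, and 1 passed the filter. It was atp5fa1, a subunit of the catalytic head of the ATP synthase, with a log2 fold change of -0.13. The summed CPM of the 42 nuclear complex I genes was 3.77 to 8.62 in S+ and 2.44 to 7.05 in S-, with overlap. That of the 19 nuclear complex V genes was 14.4 to 17.4 in S+ and 7.93 to 13.4 in S-, without overlap as CPM. Taken as a share of all counts, S+ 2 lay below S- 2, so the groups overlapped. These sums rest on 203 and 436 counts in all 8 libraries together. The sums for nuclear complexes II, III and IV, the mitochondrial ribosome and mitochondrial transcription and RNA processing overlapped. Their ratios of the S+ to the S- mean were 1.24, 1.31, 1.86, 1.28 and 2.35, on 44, 90, 168, 189 and 59 counts.

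Muscle is rich in mitochondria, and the summed CPM of its 6 marker miRNA genes was 36795 to 40829 in S+ and 37834 to 44196 in S-. Of these 6 genes, 2 were higher in S+ at an unadjusted limma p below 0.05 and 0 were called, with log2 fold changes over the list from -0.30 to 2.25 and a median of -0.0019. The 6 neuronal miR-124 genes summed to 1692 to 1740 CPM in S+ and 1808 to 2404 CPM in S-, without overlap as CPM. Taken as a share of all counts, S+ 3 lay above S- 2, so the groups overlapped. The 3 gut genes summed to 7323 to 10670 CPM in S+ and 10404 to 12453 CPM in S-. At an unadjusted limma p below 0.05, 3 miR-124 genes and 2 gut genes were lower in S+, 0 were higher and 0 were called. Of the 271 miRNA genes tested, 19 were higher and 18 were lower at this threshold. Over all genes tested the shares were 7.22% and 5.22%. Log2 fold changes ran from -1.19 to 0.097 for miR-124 and from -0.46 to -0.23 for gut. The sums of the liver, red blood cell, skin and pancreas genes overlapped between the groups. The part of these tissues in the mitochondrial values was not tested. In pools of whole larvae, a different share of a cell type and a different amount of RNA per cell cannot be told apart.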

How the data were processed

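Reads were trimmed by the authors (Trim Galore 0.6.6), who mapped them to GRCz11 with STAR 2.7.8a under small RNA settings and estimated reads per Ensembl gene with RSEM 1.3.0. They deposited these expected counts as whole numbers, without normalization, so rounding altered 0 values. The library paragraph of their methods describes a stranded mRNA kit with rRNA depletion and molecular identifiers, whereas the data paragraph speaks of short RNAs. Duplicate removal is not mentioned, so counts are of reads. Printed errors and intervals come from the spread between pools.

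From the deposited expected counts, S+ and S- were compared with limma 3.58.1 (voom) in R 4.3.3, as the study's methods name it, with TMM factors and filterByExpr (minimum count 10) of edgeR 4.0.16. DESeq2 1.42.0 was an alternative. Permutation tests on log2 CPM (prior count 0.5) were exact, over 70 arrangements, and two-sided. Class and complex sums were given without a test. The fit was tested on simulated data. RefSeq names of assembly GRCz12tu matched 13 of the 13 mRNAs and were used for names and neighbours only. No sequence is shown. Per-library values are given for mitochondrial genes at an unadjusted p below 0.05, both rRNA genes, the mRNAs of highest and lowest mean CPM, the 3 tRNA genes of highest mean count, and the pairs mt-atp6 with mt-atp8 and mt-nd4 with mt-nd4l. The members, lists and tests were chosen with earlier results of these data known.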

Additional observations from a re-analysis of the deposited data

Results flagged for a closer look

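Single libraries stood apart from the other 3 of their group in 3 of the 48 groups of 4 libraries examined, by Dixon's test at the 95% level. Chance sets apart about 5% of such groups. Library S+ 3 had 35.8 CPM of mt-nd1, while the other S+ libraries had 17.96 to 19.1 CPM. The same library had 19.0 CPM of mt-nd2, while the other S+ libraries had 9.57 to 10.6 CPM. Without S+ 3 the limma log2 fold change was 1.66 for mt-nd1 and 1.22 for mt-nd2, against 1.91 and 1.47 with all libraries. Library S- 3 had 47.1 CPM of the tRNA gene ENSDARG00000082716, while the other S- libraries had 71.6 to 72.2 CPM.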

How the results depend on the processing

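The count of mitochondrial genes called was 0, and remained 0 with edgeR's quasi-likelihood test, library size only, DESeq2 size factors, sample quality weights and each library left out. DESeq2 called 4 (3 mRNAs, 1 tRNA; 30 of 651 genes in all), every gene with at least 1 count gave 3 (2 mRNAs, 1 tRNA; 79 of 18338 in all), and genes outside miRNA only (2 of 366 in all) and at least 10 counts in every library (3 of 465 in all) gave 1 each (1 mRNA, mt-nd1). All were higher in S+. The rRNA count was 0 throughout. With the replicate block 1 of the 9 genes called in all was mitochondrial (1 mRNA, mt-nd1, log2 fold change 1.90, adjusted p = 0.0259 from limma), and the replicate block with edgeR's test, chosen after seeing the data, gave the same 1 (1 mRNA; 7 in all). Libraries with the same number in both groups are not tied to each other by the labels. Their deviations from the group means correlated at 0.156, -0.159, 0.248 and 0.0294, and 3 of 8 libraries correlated best with their own number. The count at an unadjusted p below 0.05, also added after seeing the data, ran from 7 to 13 with a library left out, 7 without S- 4 and 7 without S+ 3. The count of 5 members with groups apart in CPM was 2 by library size only and 5 with DESeq2 size factors. Over counts outside miRNA genes it was 9. These alternatives were likewise added after seeing the data. Of the 651 genes tested, 25, 27 and 76 were then apart as higher in S+, and 21, 18 and 5 as lower. With TMM scaling these background counts were 31 and 19. The cause was not tested.

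The mean of the log2 summed rRNA CPM was 0.25 higher in S+, although the plain means were 239 CPM in S+ and 237 CPM in S-. This log2 difference ran from -0.11 to 0.63 with a library left out, the negative values without S- 1 or S- 4. For the other sums the log2 difference stayed positive. The rRNA gene ENSDARG00000082753 turned to -0.19 with edgeR's test, -0.19 with DESeq2, -0.072 with the replicate block and -0.27 to 0.49 with a library left out, and ENSDARG00000080337 ran from -0.045 to 0.69. Of 284 values of the 16 tested genes chosen for per-library values, 266 kept their direction and side of the threshold, 11 passed it and 7 turned. At 37 to 81 counts, mt-nd3, mt-nd4l and mt-nd6 were too shallow for the fit.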
